A study of Mus musculus with 8 samples.

Results

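Genes that mark astrocytes and the oligodendrocyte lineage were examined in the embryonic mouse cortex, at day 18.5 of gestation, with and without the splicing regulator Ptbp2. The set held 30 genes, 16 of astrocytes (Gfap to Nfib) and 14 of the oligodendrocyte lineage (Olig1 onward), chosen by name as markers of these cells, with earlier results of these data known. All 30 had probe sets (the array's unit of measurement, a few probes within an exon) that the platform annotation gave to exactly 1 gene, 505 in all out of 303629. A probe set was retained where its mean log2 signal over all arrays reached the median of the table (6.84), and a gene was tested with at least 4 of these, on the median of them per array. This left 377 of the 505 probe sets and 25 of the 30 genes, 15 of astrocytes and 10 of the oligodendrocyte lineage, out of 12960 genes tested.

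The RNA of 1 animal was hybridised to each Affymetrix mouse exon array, from 4 wild type and 4 Ptbp2 knockout embryos that the design text calls biological replicates. Both groups had a mixed CD1 and C57BL/6 background, and the tissue was whole cortex, so all its cell types were in each sample. The knockout allele, whether it was made in all cells, and the sex of the embryos are unknown from the sources used here. Ptbp2, the polypyrimidine tract binding protein of neurons, represses alternative exons while neurons mature, and glial progenitors mostly use its paralog Ptbp1.

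Glia arise late in the cortex. Radial glia that have made neurons switch to making astrocytes around birth, a step that the transcription factors Sox9, Nfia and Nfib promote, and the new cells acquire transporters, water channels and secreted lipoproteins as they mature. Oligodendrocyte precursors enter the cortex first from the ventral forebrain and later arise within it. They carry Olig2, Sox10 and the growth factor receptor Pdgfra, pass through a committed stage marked by Gpr17, and make myelin only after birth.

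Ptbp2 itself, the check of the labels, was at 11.20 ± 0.14 in wild type cortex and 5.95 ± 0.34 in the knockout (SD, n = 4 each, log2 signal). The array medians lay between 6.82 and 6.93. Over all genes tested, the median deviation of an array from the genes' own means was highest in wild type 1 (0.092) and lowest in wild type 3 (-0.083). Markers of cortical projection neurons were present: Tbr1 averaged 9.65, Neurod6 11.54 and Fezf2 10.83 in wild type cortex. Mag and Mog, which define mature oligodendrocytes, had 2 of 18 and 1 of 7 probe sets retained, so the oligodendrocyte lineage genes measured here are mostly those of precursors and early stages.

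No member passed the test of level at a limma adjusted p under 0.05, where 15 of 12960 genes (0.116%) did, 0.0617% with a lower level in the knockout. Of the 10 oligodendrocyte lineage genes tested, 10 had a fold change below 0 with a median log2 fold change of -0.13, and of the 15 astrocyte genes 11 did with a median of -0.10. Over all genes tested 49% lay below 0, and the median was 0.0027. At an unadjusted p under 0.05, 3 oligodendrocyte lineage genes (Sox8, Gpr17 and Pdgfra) and 2 astrocyte genes (Itih3 and Aldh1l1) lay below wild type and none above. In all, 6.49% of genes were past this p, 3.79% lower and 2.7% higher. The groups did not overlap in 2 members, Sox8 and Olig2, both with the knockout below; 3.65% of all genes had groups without overlap and 1.97% with the knockout below. In whole tissue, fewer cells of a type and less RNA per cell cannot be told apart. Given how the members were chosen, these counts describe the set and carry no test of it.

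**Figure D1:**
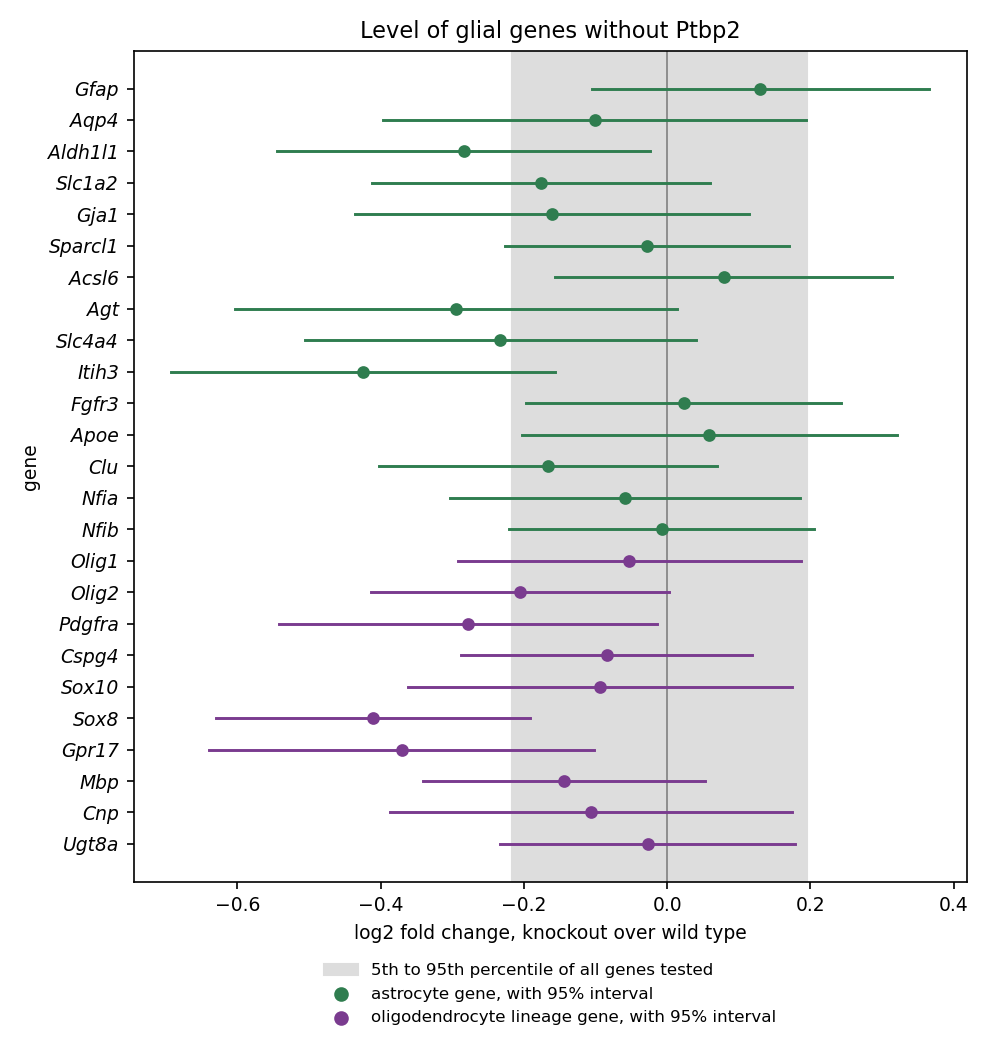
Log2 fold change of the 25 tested glial genes, knockout over wild type, with the 95% interval from limma; the grey band spans the 5th to the 95th percentile of all 12960 genes (-0.22 to 0.19). All 10 oligodendrocyte lineage points lie left of 0, and the unadjusted intervals of Sox8, Gpr17, Pdgfra, Itih3 and Aldh1l1 end below it, though none passed after adjustment.

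Sox8 had the smallest p of the 25. It encodes a transcription factor of the same subgroup as Sox9 and Sox10 and acts beside Sox10 in oligodendrocytes. Its log2 signal was 8.93, 9.11, 9.13 and 8.79 in wild type 1 to 4 and 8.49, 8.74, 8.48 and 8.61 in knockout 1 to 4. Every knockout array lay below every wild type array, with wild type 4 and knockout 2 nearest to each other. The group values were 8.99 ± 0.16 in wild type cortex and 8.58 ± 0.12 in the knockout (SD, n = 4 each), with a log2 fold change of -0.41 (SE 0.10, limma adjusted p = 0.26). Its unadjusted 95% interval was -0.63 to -0.19, and over the alternative settings the fold change ran from -0.48 to -0.30 with adjusted p between 0.15 and 0.81. All 8 retained probe sets of the gene had a lower mean in the knockout; they measure the same RNA and are not independent.

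Olig2, a basic helix-loop-helix factor that specifies the lineage, was the other member without overlap. Its values were 8.57, 8.37, 8.46 and 8.39 in wild type 1 to 4 and 8.06, 8.36, 8.36 and 8.19 in knockout 1 to 4. Wild type 2 and knockout 3 were only narrowly apart, and the log2 fold change of -0.21 (SE 0.098, limma adjusted p = 0.77) did not pass. Its paralog Olig1 was at 9.21 ± 0.24 in wild type cortex and 9.15 ± 0.067 in the knockout (SD, n = 4 each), with overlapping values and a log2 fold change of -0.053 (SE 0.11, limma adjusted p = 0.98). Without wild type 1 the fold change of Olig1 was 0.027.

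The promoters of Sox8 and Olig2 are shown because these are the 2 members whose groups did not overlap. RefSeq (GRCm38.p6) gave promoter windows for 22 of the 30 members. Each stretch holds the 120 bases before the gene's annotated start, 5′ to 3′ on the gene's strand, with motif letters in capitals: in Sox8 the reverse complement of the NFI half-site TTGGCA, beginning 70 bases before the start, and in Olig2 the reverse complement of the Sox motif ACAATG, beginning 68 bases before it.
Sox8 (chr17:25570687-25570806, minus strand): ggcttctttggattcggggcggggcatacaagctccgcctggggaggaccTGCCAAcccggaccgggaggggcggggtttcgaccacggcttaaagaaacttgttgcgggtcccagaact
Olig2 (chr16:91225430-91225549, plus strand): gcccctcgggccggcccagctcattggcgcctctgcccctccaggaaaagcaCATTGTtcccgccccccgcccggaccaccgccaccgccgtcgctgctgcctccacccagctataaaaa
Over the 250 bases before the start, on both strands, TTGGCA was in 3 of 12 windows of oligodendrocyte lineage genes (Cnp, Cspg4 and Sox8) and 2 of 18 of astrocyte genes (Apoe and S100b), against 12.3% of all 32851 windows. The Sox motif ACAAAG was in 3 of 12 (windows of Cnp and Mag) and 2 of 18 (Acsl6 and Apoe), against 16.5%. ACAATG was in 1 of 12 (Olig2) and 2 of 18 (Apoe and Nfia), against 10.7%, and the E-box CAGCTG in 1 of 12 (Lhfpl3) and 2 of 18 (Acsl6 and Fgfr3), against 13%. A match is a description of the letters and not a binding site, and a gene can have several windows.

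Sox10, the factor that maintains the lineage throughout its development, had no such order of the groups. Its log2 signal was 7.65, 7.74, 7.58 and 7.41 in wild type 1 to 4 and 7.89, 7.30, 7.30 and 7.51 in knockout 1 to 4, so the highest of all 8 values was knockout 1 and the groups overlapped widely. It had a log2 fold change of -0.093 (SE 0.13, limma adjusted p = 0.96), which was -0.22 without knockout 1, -0.027 without knockout 2 or knockout 3, and 0.065 under array weights. Whether Sox8 and Sox10 differed from each other was not tested.

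Among the tested receptors and surface proteins of precursors, Gpr17 and Pdgfra had the lowest fold changes, and differences between these genes were not tested. Gpr17, an orphan receptor of precursors committed to differentiate, was at 8.72, 8.29, 8.20 and 8.08 in wild type 1 to 4 and 7.82, 8.08, 8.05 and 7.85 in knockout 1 to 4. Wild type 1 stood highest, and the only crossing was wild type 4, narrowly below knockout 2. Gpr17 had a log2 fold change of -0.37 (SE 0.13, limma adjusted p = 0.59), and -0.24 without wild type 1. The log2 fold changes of its 4 retained probe sets ran from -0.38 to -0.33. Pdgfra, the receptor for the A chain of platelet-derived growth factor that drives precursor division, was at 9.25, 8.78, 9.25 and 8.82 in wild type cortex and 8.79, 8.53, 8.81 and 8.86 in the knockout. Wild type 1 and wild type 3 were high, while wild type 2 and wild type 4 lay among the knockout arrays. Pdgfra had a log2 fold change of -0.28 (SE 0.12, limma adjusted p = 0.76), and 25 of 26 probe sets had a lower mean in the knockout. Under array weights its fold change was -0.12.

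Cspg4, the NG2 proteoglycan of the precursor surface, was at 7.96 ± 0.14 in wild type cortex and 7.87 ± 0.083 in the knockout (SD, n = 4 each), with a log2 fold change of -0.084 (SE 0.096, limma adjusted p = 0.95). Its 95% interval was -0.29 to 0.12, and its fold change was -0.030 without wild type 1. Lhfpl3, a tetraspan protein of precursors, had 3 of 4 probe sets retained and Nkx2-2, a homeodomain factor of precursors about to differentiate, 1 of 8, so neither was tested in the same way. Read from those probe sets alone, Lhfpl3 had a log2 fold change of -0.054 and Nkx2-2 one of -0.28 (limma adjusted p = 0.97 and 0.72, among genes with at least 1 probe set).

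Of the myelin genes, Mbp, Cnp and Ugt8a were tested, and none passed. Mbp, which encodes the myelin basic proteins and, from an upstream start, the golli proteins that neurons also make, was at 8.88, 8.58, 8.67 and 8.80 in wild type 1 to 4 and 8.61, 8.59, 8.53 and 8.64 in knockout 1 to 4. The knockout values lay close together, knockout 3 below every wild type array and the others in the lower part of the wild type range. Mbp had a log2 fold change of -0.14 (SE 0.093, limma adjusted p = 0.86), and 11 of 13 probe sets had a lower mean in the knockout. Its fold change was -0.32 with the signal filter at the 75th percentile and -0.096 without wild type 1. Which of them belong to golli transcripts was not known here. Cnp, a phosphodiesterase of uncompacted myelin, was at 8.70 ± 0.28 in wild type cortex and 8.59 ± 0.18 in the knockout (SD, n = 4 each), and Ugt8a, the enzyme that makes galactosylceramide, at 7.59 ± 0.075 in wild type cortex and 7.57 ± 0.15 in the knockout (SD, n = 4 each). Their log2 fold changes were -0.11 and -0.027 (limma adjusted p = 0.96 and 0.99), and both signs turned when single arrays were left out (Cnp 0.0078 without wild type 1, Ugt8a 0.032 without knockout 3). Mag and Mog, proteins of the myelin surface, were not tested in the same way. The medians of all their probe sets were 5.07 and 6.09 in wild type cortex and 5.14 and 6.22 in the knockout. These lay below the filter of 6.84. Read from their retained probe sets alone, Mag had a log2 fold change of -0.085 and Mog one of 0.16. Neither passed (limma adjusted p = 0.94 for each, among genes with at least 1 probe set).

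**Figure D2:**
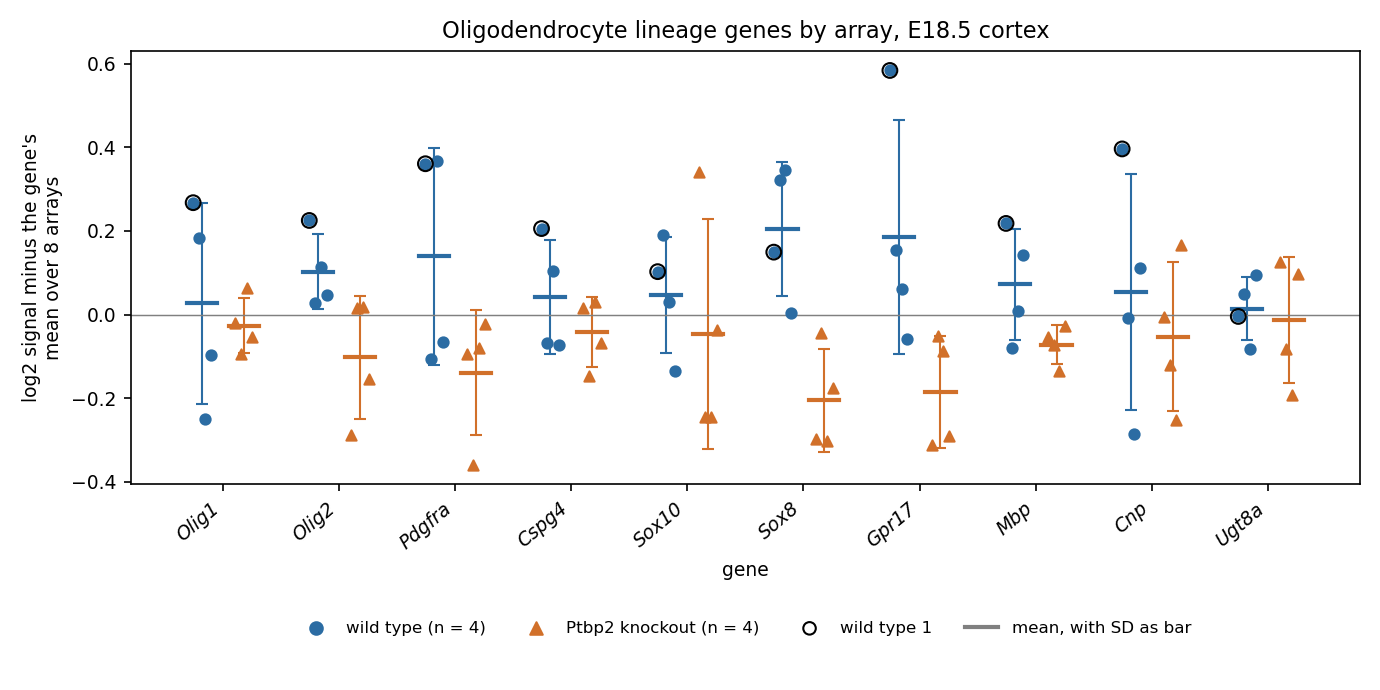
Log2 signal of each tested oligodendrocyte lineage gene on each array, minus the gene's mean over the 8 arrays; bars give the group mean and SD (n = 4), and the ring marks wild type 1. Sox8 and Olig2 have every knockout point below every wild type point. Wild type 1 is the highest of all 8 arrays in 6 of the 10 genes, against 4183 of all 12960 genes tested.

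Wild type 1 was the highest array in 6 of 10 oligodendrocyte lineage genes, against 4183 of all 12960 genes, so it was often highest in general. Its median deviation from the genes' means was 0.22, against 0.092 over all genes. The other wild type arrays were at 0.038, 0.046 and -0.028 and the knockout arrays at -0.037, -0.089, -0.11 and -0.045. By this measure all knockout arrays lay below the wild type arrays, with wild type 4 and knockout 1 almost level. The median level of the same genes, with no centring of each gene, overlapped, at 8.41 to 8.80 in wild type cortex and 8.27 to 8.44 in the knockout. Without wild type 1, 8 of 10 genes had a fold change below 0 with a median of -0.085, and Olig1 and Cnp were the 2 above 0. Leaving out that array also moved the genes as a whole: 5127 of 12960 were then below 0, against 6355 with all arrays, and their median was 0.032. With quantile normalization the median was -0.15 and with cyclic loess -0.16, with 10 of 10 below 0 in each. With no signal filter 11 of 14 were below 0 (median -0.080), and with a minimum of 1 probe set 13 of 14 (-0.10). Under array weights 9 of 10 were below 0 (median -0.12). Without wild type 3 and knockout 3 together, a setting chosen after seeing the data, 9 of 10 were below 0 and the median was -0.16. Without knockout 2 alone 10 of 10 were below 0 (median -0.11), and without knockout 3 alone 9 of 10 (-0.12).

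Itih3, Aldh1l1 and Agt had the largest fold changes among the astrocyte genes, all below 0. Itih3, a heavy chain that binds hyaluronan and an early astrocyte marker, was at 7.44, 7.43, 7.32 and 7.18 in wild type 1 to 4 and 6.74, 7.34, 6.78 and 6.81 in knockout 1 to 4. Knockout 1, 3 and 4 lay below the filter of 6.84 and below every wild type array, while knockout 2 lay within the wild type range. Itih3 had a log2 fold change of -0.42 (SE 0.13, limma adjusted p = 0.42), of limited precision since 3 knockout values were near background. It rested on 6 retained probe sets of 20, all with a lower mean in the knockout. The filter took the mean over both groups, so a probe set could be retained through its wild type values. The shared direction of the 6 therefore adds no support. Without knockout 2 the fold change was -0.57 with an adjusted p of 0.067, and with all probe sets it was -0.21.

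Aldh1l1, a folate enzyme that labels astrocytes from early on, was at 9.68, 9.26, 9.17 and 9.60 in wild type 1 to 4 and 9.26, 9.17, 8.92 and 9.21 in knockout 1 to 4. Wild type 1 and wild type 4 were high, wild type 2 and wild type 3 within the range of the knockout. Aldh1l1 had a log2 fold change of -0.28 (SE 0.12, limma adjusted p = 0.75), and 23 of 24 probe sets had a lower mean in the knockout. With the signal filter at the 75th percentile its fold change was -0.17. Agt, which encodes angiotensinogen, was at 7.15, 7.95, 7.21 and 7.61 in wild type 1 to 4 and 7.17, 7.07, 7.26 and 7.24 in knockout 1 to 4. Wild type 2 and wild type 4 were high, and wild type 1 and wild type 3 lay among the knockout values. Agt had a log2 fold change of -0.30 (SE 0.15, limma adjusted p = 0.78), and -0.14 without wild type 2.

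The transporters and channels of astrocytes had fold changes below 0 without passing. Slc4a4, the sodium bicarbonate cotransporter, was at 9.07 ± 0.28 in wild type cortex and 8.84 ± 0.16 in the knockout (SD, n = 4 each), with a log2 fold change of -0.23 (SE 0.13, limma adjusted p = 0.83). Its fold change was -0.11 without wild type 3 and -0.052 under array weights. Slc1a2, the main glutamate transporter of astrocytes, was at 9.25 ± 0.18 in wild type cortex and 9.07 ± 0.17 in the knockout (SD, n = 4 each), with a log2 fold change of -0.18 (limma adjusted p = 0.85). Of its 24 probe sets, 8 carried an older name in the annotation, and without these the fold change was -0.045. Aqp4, the water channel of astrocyte endfeet, had a log2 fold change of -0.10 (adjusted p = 0.96) that turned to 0.041 without wild type 1. Gja1, the gap junction protein connexin 43, was at 8.57, 8.71, 8.77 and 8.55 in wild type 1 to 4 and 8.70, 8.04, 8.63 and 8.58 in knockout 1 to 4. Knockout 2 stood alone at the bottom, the fold change was -0.16 with all arrays (adjusted p = 0.91) and -0.010 without that array, and 6 of the 9 probe sets were higher in the knockout.

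Secreted proteins had fold changes on both sides of 0. Clu, the lipoprotein clusterin, had a log2 fold change of -0.17 (SE 0.11, limma adjusted p = 0.87), which was -0.27 without wild type 3 and -0.11 without wild type 2. Apoe, the main lipid carrier of the brain, had one of 0.059 (adjusted p = 0.98), whose sign turned without wild type 3 (-0.048). Sparcl1, the synapse-promoting protein hevin, was at 11.55 ± 0.13 in wild type cortex and 11.53 ± 0.054 in the knockout (SD, n = 4 each), with a log2 fold change of -0.028 (SE 0.093, limma adjusted p = 0.98). Its 15 retained probe sets all had a lower mean in the knockout, by log2 fold changes of -0.31 to -0.0090. The fold change of the gene was 0.035 without wild type 1.

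Gfap, the intermediate filament that rises as astrocytes mature, was the tested astrocyte gene with the highest fold change. It was at 8.20, 8.13, 7.96 and 7.96 in wild type 1 to 4 and 8.32, 8.41, 7.95 and 8.09 in knockout 1 to 4. Knockout 1 and knockout 2 lay above every wild type array and knockout 3 just below them all, and the log2 fold change of 0.13 (SE 0.11, limma adjusted p = 0.91) did not pass. Its fold change stayed above 0 in all 19 alternative settings run (0.057 to 0.21). S100b, a calcium-binding protein, had 1 of 5 probe sets retained and was not tested in the same way. That probe set was at 8.80 ± 0.15 in wild type cortex and 8.50 ± 0.27 in the knockout (SD, n = 4 each). Read from it alone, S100b had a log2 fold change of -0.30 (limma adjusted p = 0.73, among genes with at least 1 probe set).

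Among the genes tied to the start of gliogenesis, Nfia and Nfib, nuclear factor I proteins that neurons of the cortex make too, averaged 10.43 and 10.93 in wild type cortex and 10.37 and 10.92 in the knockout. Their log2 fold changes were -0.058 (95% interval -0.30 to 0.19) and -0.0077 (-0.22 to 0.21), and both signs turned without wild type 3. Fgfr3, a fibroblast growth factor receptor of radial glia and astrocytes, had a log2 fold change of 0.023 (SE 0.10, limma adjusted p = 0.99), and quantile and cyclic loess normalization each turned its sign. Acsl6, an acyl-CoA synthetase, had one of 0.079 (SE 0.11, adjusted p = 0.96) that turned without wild type 3.

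**Figure D3:**
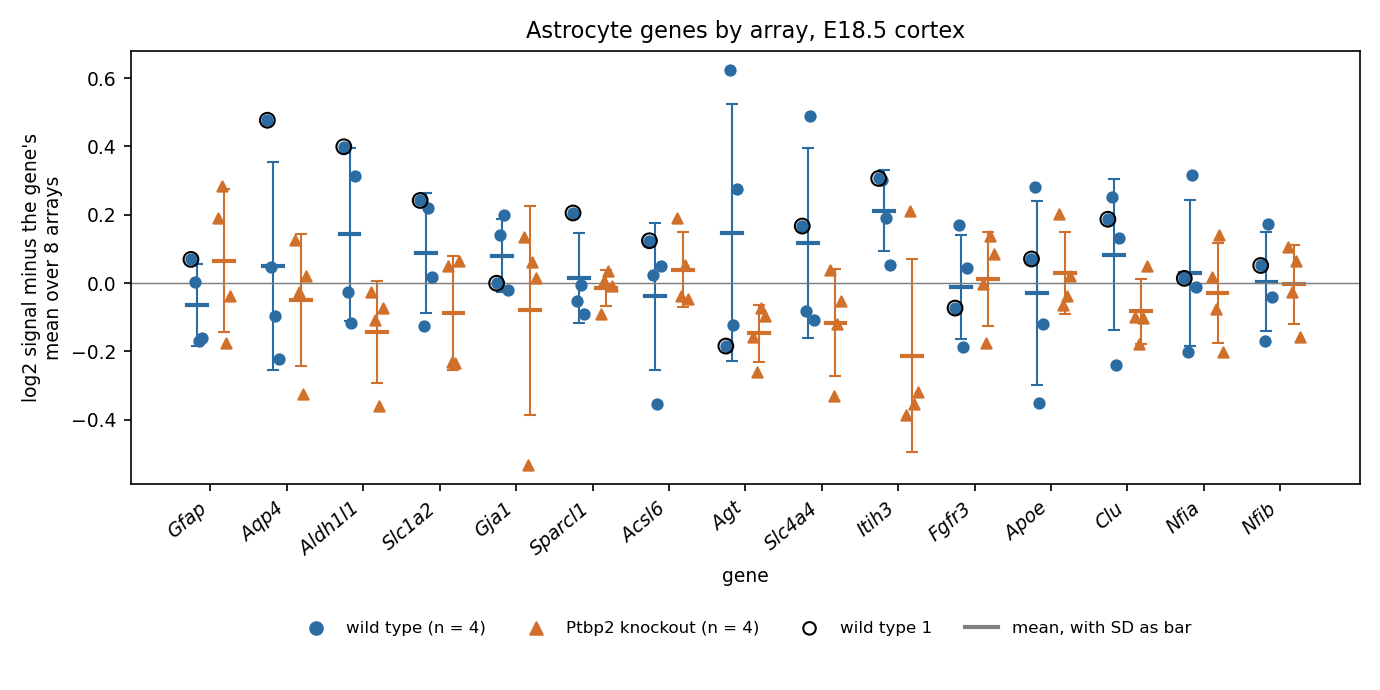
Log2 signal of each tested astrocyte gene on each array, minus the gene's mean over the 8 arrays; bars give the group mean and SD (n = 4), and the ring marks wild type 1. No astrocyte gene separates the groups; in Itih3 knockout 2 lies apart from the other knockout arrays, and in Gja1 knockout 2 is the lowest point.

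The astrocyte median varied with the arrays and settings used and stayed below 0 in every setting run. It was -0.10 with all arrays, -0.043 without knockout 2, -0.064 without wild type 1 (where 8 of 15 genes were below 0 and the median of all genes was 0.032) and -0.16 without knockout 1. It was -0.058 with gene names as annotated, which changed the probe sets of Slc1a2 alone among the members, and -0.036 under array weights. With quantile normalization it was -0.13 and with cyclic loess -0.15, with 12 of 15 below 0 in each. By array, the median deviation of the astrocyte genes ran from -0.096 (wild type 3) to 0.12 (wild type 1) in wild type cortex and from -0.075 (knockout 2) to 0.037 (knockout 1) in the knockout, so the wild type range enclosed the knockout range. Over all genes the same 2 wild type arrays were at the ends.

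Single probe sets were examined because Ptbp2 is known as a regulator of exons. Of the 377 retained probe sets of members, 0 passed in level by limma after adjustment over all 312767 (0.0921% of which passed), and the smallest adjusted p was 0.41. At an unadjusted p under 0.05 there were 32 (8.49%), 27 lower and 5 higher, against 7.44% of all probe sets (2.59% lower and 4.84% higher). The 105 of oligodendrocyte lineage genes held 16 of these, all lower, and those of astrocyte genes held 11 lower and 5 higher of 272. The groups did not overlap in 18 of the 377 (4.77%), against 4.24% of all. Of the 105, 87 had a fold change below 0 (82.9%), and of the 272, 178 (65.4%), against 44.4% of all probe sets. Probe sets of 1 gene measure the same RNA and are not independent. The smallest adjusted p belonged to Gfap probe set 4549591, chosen for mention after its values were seen. It was at 7.81, 7.79, 7.68 and 7.96 in wild type 1 to 4 and 8.18, 8.41, 8.17 and 8.13 in knockout 1 to 4, higher in every knockout array.

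**Figure D4:**
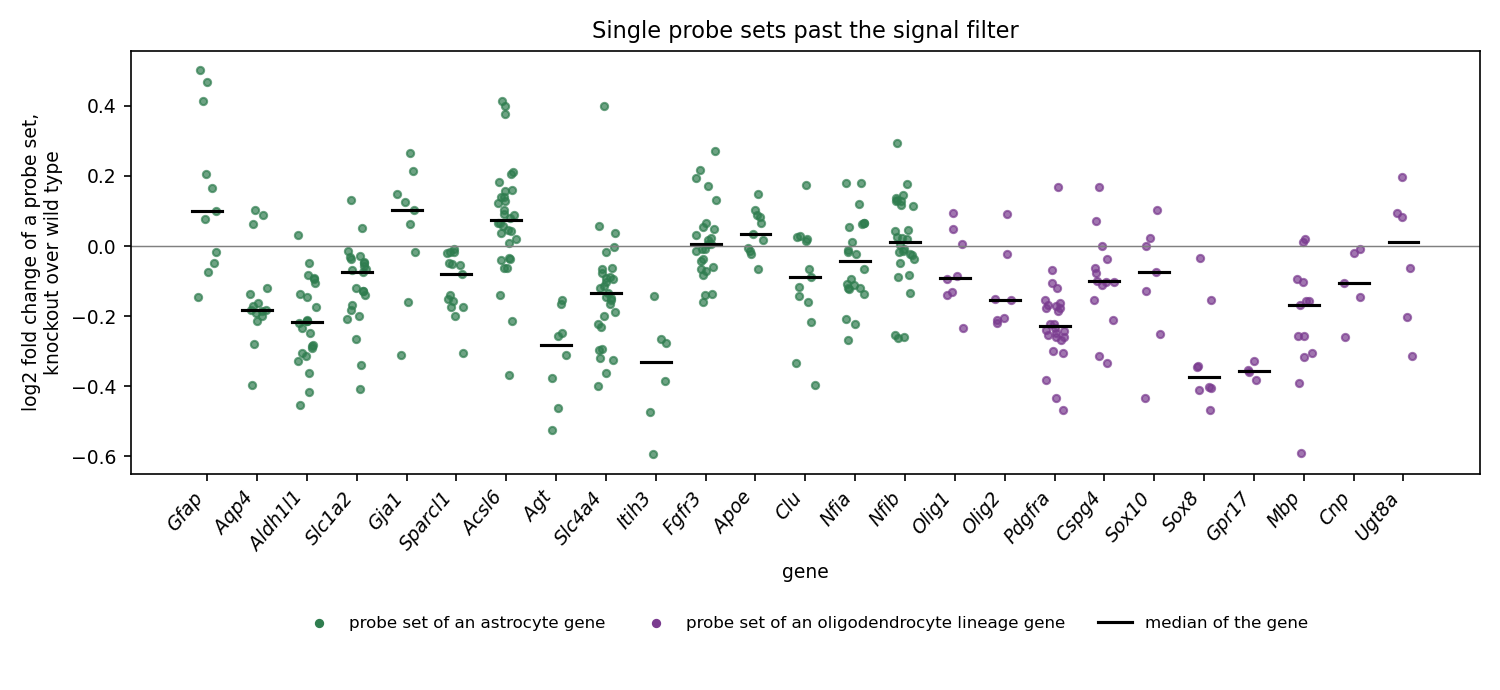
Log2 fold change of every retained probe set of the 25 tested genes, knockout over wild type; each point is a probe set, spread sideways for legibility, and the black line is the median over a gene. The 8 probe sets of Sox8, 4 of Gpr17 and 5 of Cnp all lie below 0. So do the 15 of Sparcl1, 8 of Agt and 6 of Itih3 among the astrocyte genes. Those of every other tested gene, of either list, lie on both sides.

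Relative to the rest of their gene (usage), 0 of 369 probe sets of members passed in limma diffSplice or in the splicing index, which subtracts the gene's median, against 0.216% and 0.0107% of 195622 probe sets. At an unadjusted p under 0.05, diffSplice gave 12 (3.25%) and the splicing index 17, against 4.57% and 5.28% of all. Of the 12, 5 were in Acsl6 and 4 in Nfib. The smallest diffSplice p among members was in Slc4a4, where probe set 5469890 was at 7.59 ± 0.41 in wild type cortex and 7.99 ± 0.27 in the knockout, a deviation of 0.55 from the gene (adjusted p = 0.28). The groups overlapped, and without wild type 2 the probe set passed with a deviation of 0.76 (limma diffSplice adjusted p = 0.032). In Acsl6, probe set 4326349 was at 8.71, 8.77, 8.98 and 8.74 in wild type 1 to 4 and 8.51, 8.37, 8.38 and 8.47 in knockout 1 to 4, and 5128944, chosen after its values were seen, at 8.15, 8.10, 7.81 and 8.15 in wild type cortex and 8.51, 8.53, 8.45 and 8.32 in the knockout. The first was lower and the second higher in every knockout array, with deviations of -0.46 and 0.33 (adjusted p = 0.33 and 0.90), so neither passed. In Mbp, 5517815 spread widely in the knockout, at 8.05, 9.24, 8.53 and 8.87 in knockout 1 to 4 against 9.34, 9.22, 9.35 and 9.13 in wild type cortex, with knockout 2 alone inside the wild type range (deviation -0.41, adjusted p = 0.70). In Nfib, Pdgfra and Gja1 the smallest p belonged to 4960224 (0.30), 4446521 (0.40) and 5599624 (-0.40), with adjusted p between 0.88 and 1.0. The exons that these probe sets lie in were not used here.

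Further genes of both lineages were read from the same fit. Of 27 other astrocyte genes tested, 20 had a fold change below 0, 0 passed, and 1 was lower and 1 higher at an unadjusted p under 0.05, with a median of -0.056. The lower one was Chrdl1, a BMP antagonist (-0.22, limma adjusted p = 0.76), and the higher one Id3, an inhibitor of helix-loop-helix factors that BMP signals induce and that blood vessels also make (0.41, adjusted p = 0.54). Gjb6, connexin 30 (-0.24), and Slc7a10, an amino acid transporter (-0.22), came next. Of 18 other oligodendrocyte lineage genes tested out of 30 listed, 12 lay below 0, 0 passed, and the median was -0.034. Nkx6-2, a homeodomain factor of the lineage, was at 8.67, 8.79, 8.67 and 8.79 in wild type 1 to 4 and 8.46, 8.44, 8.34 and 8.62 in knockout 1 to 4, without overlap. It had a log2 fold change of -0.26 (SE 0.092, limma adjusted p = 0.61). Zfp488, an oligodendrocyte regulator (-0.24), Cldn11, a tight junction protein of myelin and meninges (-0.23), and Neu4, a sialidase (-0.16), did not pass.

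Of 28 regulators of gliogenesis tested, 16 had a fold change below 0, 0 passed, and the median was -0.018. The groups did not overlap in 4 of them, Sox9, Ptch1, Zfp36l1 and Smad1 (14.3%, against 3.65% of all genes). Sox9, which starts gliogenesis and is a relative of Sox8, was at 9.12, 8.99, 8.94 and 8.95 in wild type 1 to 4 and 8.85, 8.51, 8.92 and 8.83 in knockout 1 to 4. Every knockout value was below every wild type value, wild type 3 and knockout 3 being nearest. Sox9 had a log2 fold change of -0.23 (SE 0.10, limma adjusted p = 0.76). Ptch1, the Hedgehog receptor, had the knockout values below (-0.17, adjusted p = 0.79), and Zfp36l1, an RNA-binding protein (0.26, adjusted p = 0.68), and Smad1, a BMP signal transducer (0.18, adjusted p = 0.77), had higher values in all knockout arrays; none passed. Genes of radial glia, the source of both lineages, lay between -0.16 and 0.21, 8 of 13 below 0.

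Markers of neighbouring tissue and of other cell types were read from the same fit, none of them passed, and their part in the glial values was not tested. Of 14 genes of ventral forebrain and striatum, 13 had a fold change below 0, against 49% of all genes. An unadjusted p under 0.05 was found for 7 of the 14, against 6.49% of all genes, and their median fold change was -0.28. By array, their median level was 9.07 to 9.24 in wild type cortex and 8.80 to 9.10 in the knockout, lowest in knockout 3. The groups did not overlap in 4 of the 14, against 3.65% of all genes. Tac1, Penk, Ikzf1 and Ebf1 had the smallest p, with fold changes of -0.75, -0.47, -0.37 and -0.45. Choroid plexus and ependymal genes lay below 0 in 10 of 10, with array medians of 8.01 to 8.31 in wild type cortex and 7.32 (knockout 2) to 8.28 in the knockout. Ccdc153 (-0.46), Enpp2 (-0.38), Clic6 (-0.66) and Ttr (-1.04) had the smallest p among the choroid plexus and ependymal genes. The fold changes of Ttr and Clic6 came mostly from knockout 2. Ttr was at 13.18, 9.36, 13.32 and 13.34 in knockout 1 to 4 and at 13.32 to 13.38 in wild type cortex. Clic6 was at 7.70, 6.14, 8.19 and 8.03 in knockout 1 to 4 and at 8.12 to 8.22 in wild type cortex. Knockout 2 was also the lowest array in Enpp2 (8.32). Slc17a7, the vesicular glutamate transporter of cortical neurons, had the knockout below wild type without overlap (-0.49, limma adjusted p = 0.36). Microglial genes were below 0 in 1 of 7 (Cd68 0.35), endothelial and pericyte genes in 2 of 11 (Kcnj8 0.27 and Esam 0.24, both above 0), cortical neuron genes in 6 of 13, meningeal genes in 4 of 9 and erythroid genes in 1 of 2.

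**Figure D5:**
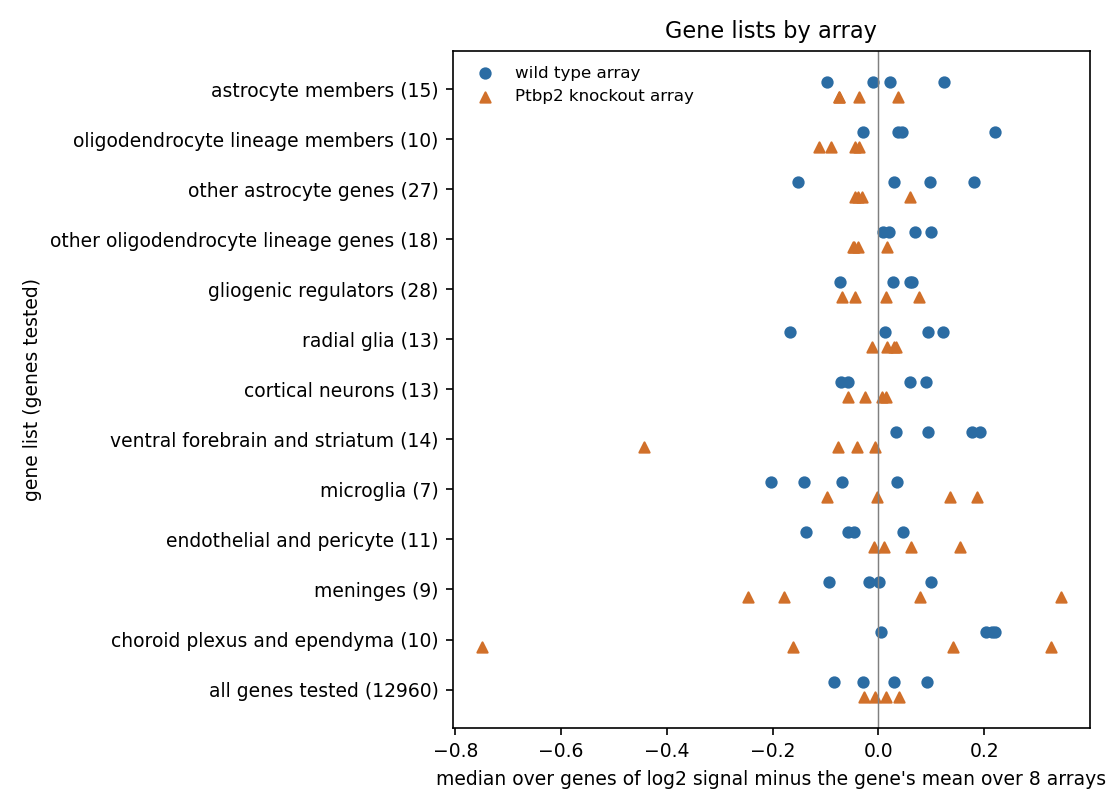
Median over the genes of a list of the log2 signal minus each gene's mean over the 8 arrays, for each array; circles are wild type and triangles knockout arrays (n = 4 each), and the number of genes tested follows each name. Knockout arrays lie left of the wild type arrays for the oligodendrocyte lineage members and for ventral forebrain and striatum; for choroid plexus knockout 2 lies far left, and for the astrocyte members the wild type range encloses the knockout range.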

How the data were processed

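The deposited table holds log2 signals of 625534 probe sets on 8 Affymetrix mouse exon arrays, 4 wild type and 4 Ptbp2 knockout. Per the submitters' processing notes, the authors used Affymetrix Expression Console and RMA, and name the genome build mm9; how each was applied is not given in the sources used here. Such values are already background-corrected and scaled between arrays, so a shift shared by all genes would be reduced. The arrays were still not level: the median deviation over all genes ran from -0.083 (wild type 3) to 0.092 (wild type 1). Dim probe sets keep a compressed difference.

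Probe sets were named through the platform annotation: 303629 have 1 symbol, 5892 several and 316013 none. Of 21634 symbols, 17657 were current and 3919 were updated through RefSeq synonyms (GRCm38.p6). No deposited array was a copy of another. Levels were tested with limma (3.58.1, in R 4.3.3) lmFit and eBayes on gene medians of retained probe sets, single probe sets in the same way, and usage with diffSplice, each with Benjamini-Hochberg adjustment over all features. Scripts were tested on simulated data. With 4 arrays per group, their number limits the precision.

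All members are named. Of each other list, up to 4 genes with the smallest p are named, and the probe set with the smallest usage p in at most 6 members. The members and lists were chosen with earlier results of these data known. Alternatives covered each array, the replicate block, signal filters, normalization, variance model, array weights, Xist as a covariate, the summary over probe sets, the minimum of probe sets and the usage model. Leaving out wild type 3 with knockout 3, and names as annotated, were added after seeing the data.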

Additional observations from a re-analysis of the deposited data

Results flagged for a closer look

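Of 54 groups of 4 values examined with Dixon's criterion for a value far from the others, 1 was singled out, and chance singles out about 5% of groups. It was Itih3 in knockout cortex, where knockout 2 was at 7.34 and the nearest of the others at 6.81, a gap of 0.888 of the group's whole range.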

How the results depend on the processing

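The 25 members were refitted with each of the 8 arrays left out and under up to 12 other settings; the filter at the 75th percentile left 17 of them, and names as annotated were run for single genes only for Slc1a2, the member whose probe sets they change. In none of these did a member pass in level. Member probe sets were refitted in level under the settings planned for them, and 0 passed; the smallest adjusted p of a member was 0.067 (Itih3 without knockout 2). The sign held in every setting run for 13 of 25 members, 7 of 15 astrocyte and 6 of 10 oligodendrocyte lineage genes. The median fold change of all genes furthest from 0 in any of these settings was 0.032, without wild type 1.

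Of all genes, 15 passed with the main settings, 7 with no signal filter, 25 with the filter at the 75th percentile, 24 with quantile normalization, 71 with array weights, 37 with the mean of probe sets, 5 with a minimum of 1 probe set and 9 without wild type 3 and knockout 3; with 1 array left out, 7 (wild type 2) to 15 did, and 9 without wild type 4, knockout 1, knockout 2 or knockout 3. Filtering at the 75th percentile left 4 oligodendrocyte lineage members, with a median of -0.27. With no signal filter 2 member probe sets passed in usage (Acsl6 5110054, deviation -0.73, adjusted p = 0.037, and Gja1 4500741, 1.15, adjusted p = 0.011), and with 1 array left out 0 to 1.

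Signs turned as follows. With array weights: Aqp4 0.087, Sparcl1 0.021, Fgfr3 -0.017, Nfib 0.024 and Sox10 0.065. With the 75th percentile filter: Gja1 0.089 and Fgfr3 -0.067. With the mean of probe sets: Gja1 0.048 and Nfib 0.010. With no signal filter: Nfib 0.032 and Ugt8a 0.052. For Fgfr3 quantile normalization gave -0.0049 and cyclic loess -0.019. Without wild type 3 and knockout 3: Acsl6 -0.031, Fgfr3 -0.077, Apoe -0.025, Nfib 0.026 and Ugt8a 9.7e-05. With 1 array left out, the fold changes ran from -0.19 to 0.041 for Aqp4, -0.063 to 0.035 for Sparcl1, -0.026 to 0.13 for Acsl6, -0.036 to 0.085 for Fgfr3, -0.048 to 0.16 for Apoe, -0.14 to 0.037 for Nfia, -0.065 to 0.049 for Nfib, -0.14 to 0.027 for Olig1, -0.22 to 0.0078 for Cnp and -0.074 to 0.032 for Ugt8a. The cause was not tested.

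Arrays with the same replicate number correlated in their deviations from the group means by 0.25, -0.0039, 0.033 and 0.17, and 2 of 4 correlated best with their own number, so the numbers were not taken to pair the arrays. With the replicate block 22 genes passed, 0 members passed in level or usage, and the list medians were -0.10 and -0.13 as before.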
